A study of Mus musculus with 4 samples.

Results

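The regions described here are the E2A peaks of double-positive (DP) thymocytes that lay far from any protein-coding gene. A peak was taken when its midpoint was outside every protein-coding gene body and more than 100 kb from every protein-coding transcription start site (TSS), with genes from GENCODE release M1 on mm9. These were 1404 of the 17532 DP peaks, or 8.01% (95% Wilson interval for counting error, 7.62 to 8.42), and they are called far peaks. The rule uses position and not the score, but it was set with earlier results of these data known.

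E2A, the product of Tcf3, is an E protein that binds DNA as a dimer at E-boxes, short sites of the form CANNTG. In thymocytes E proteins drive genes of the T lineage and of antigen receptor rearrangement, and Id2 and Id3 oppose them by forming dimers that cannot bind DNA. Many enhancers that set the level of T lineage transcription factors lie in gene deserts, long stretches without coding genes, at a great distance from the gene they act on.

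E2A was precipitated with the V-18 antibody from thymocytes of L-DKO mice, aged 3 to 5 weeks, with floxed alleles of Id2 (Id2 f/f) and Id3 (Id3 f/f) and the LckCre transgene (LckCre+). DP cells were sorted as CD1dTet- CD4+ CD8+, and invariant natural killer T (iNKT) cells, the cells that CD1d selects from them, as CD1dTet+ TCRβ+. Each cell type gave 1 E2A library and 1 input library from cells pooled over 3 to 4 mice. Every library carried the Id2 and Id3 deletion, which Lck-driven Cre makes within the T lineage, and no cells with intact Id genes are among them. Each peak had a score, which is the peak caller's p-value as −log10 multiplied by 10, so that the minimum of 50 stands for a p-value of 1e-05. A score of exactly 3100 is shared by 258 DP peaks, which have no order among themselves, and some DP peaks score higher. With 1 library per cell type there was no replicate error and no test between cell types. Peak positions hold no expression values, so the sorted cell types could not be checked against their markers. The lists give no read counts, and the depth of each library is unknown.

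The first sequences below are parts of far peaks, each chosen to hold an E-box site, so its presence there is no result. For 10 genes of T lineage transcription factors, 80 bases are printed around the CAGGTG site, or its reverse complement CACCTG, nearest to the midpoint of the highest far peak that has the gene as a flanking gene. Beside Ets2 a pair of far peaks tied at 3100, and the one 165 kb from its start was used. The site is in capitals, all are from the plus strand of mm9, and a match of letters is not by itself a bound site.
Id2 (chr12:25952199-25952278): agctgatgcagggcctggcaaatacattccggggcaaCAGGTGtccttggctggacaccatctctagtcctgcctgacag
Satb1 (chr17:52740781-52740860): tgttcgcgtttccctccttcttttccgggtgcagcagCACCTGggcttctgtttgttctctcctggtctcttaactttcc
Sox4 (chr13:28604561-28604640): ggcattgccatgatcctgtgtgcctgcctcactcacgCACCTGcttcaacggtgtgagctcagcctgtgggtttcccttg
Ets2 (chr16:96088833-96088912): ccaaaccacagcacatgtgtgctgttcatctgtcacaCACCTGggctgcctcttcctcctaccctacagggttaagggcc
Foxo1 (chr3:52200988-52201067): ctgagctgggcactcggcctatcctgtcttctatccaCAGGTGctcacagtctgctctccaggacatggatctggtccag
Ets1 (chr9:32736292-32736371): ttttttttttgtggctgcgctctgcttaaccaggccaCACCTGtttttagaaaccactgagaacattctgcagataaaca
Lef1 (chr3:130648900-130648979): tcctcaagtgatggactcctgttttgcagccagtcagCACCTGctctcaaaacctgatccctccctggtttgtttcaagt
Myc (chr15:62043977-62044056): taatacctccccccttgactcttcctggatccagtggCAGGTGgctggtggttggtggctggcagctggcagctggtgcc
Runx1 (chr16:93191495-93191574): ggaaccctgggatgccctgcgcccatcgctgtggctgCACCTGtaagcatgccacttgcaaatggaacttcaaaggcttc
Gata3 (chr2:9517008-9517087): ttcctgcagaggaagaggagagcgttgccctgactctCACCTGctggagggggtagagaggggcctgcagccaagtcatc
The site lay 6 bp from the midpoint beside Runx1 and 34 bp from it beside Foxo1. Beside Id2, Sox4 and Ets1 it was 50, 42 and 75 bp away. Beside Lef1, Gata3, Ets2, Satb1 and Myc it was 599, 581, 240, 203 and 140 bp away, outside the 200 bp at the midpoint.

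The next sequences carry another kind of far peak, in which the same E-box is repeated many times. The first runs across the midpoint of a peak between Dyrk1a and Kcnj6 with CAGCTG in capitals, and the other 2 are from peaks between Slc38a2 and Slc38a4 and between Trim33 and Syt6, with CACCTG or CAGGTG in capitals.
Dyrk1a-Kcnj6 (chr16:94920272-94920421): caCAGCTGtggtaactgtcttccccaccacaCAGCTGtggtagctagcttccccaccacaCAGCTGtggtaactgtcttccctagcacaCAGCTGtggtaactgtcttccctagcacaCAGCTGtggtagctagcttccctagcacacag
Slc38a2-Slc38a4 (chr15:96765546-96765695): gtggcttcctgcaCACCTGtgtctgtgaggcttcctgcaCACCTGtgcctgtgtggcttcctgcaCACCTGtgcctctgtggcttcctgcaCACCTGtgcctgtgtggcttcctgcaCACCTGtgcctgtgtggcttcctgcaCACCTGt
Trim33-Syt6 (chr3:103264959-103265158): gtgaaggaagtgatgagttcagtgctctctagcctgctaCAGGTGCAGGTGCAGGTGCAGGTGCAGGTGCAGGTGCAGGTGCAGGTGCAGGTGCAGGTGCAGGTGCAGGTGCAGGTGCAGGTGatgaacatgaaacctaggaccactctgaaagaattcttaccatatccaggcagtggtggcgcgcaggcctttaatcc
The 150 bases printed between Dyrk1a and Kcnj6 held 5 copies of CAGCTG, and the 200 bases between Trim33 and Syt6 held 14 copies of CAGGTG. By contrast, the 150 bases at the midpoints of a pair of neighbouring peaks between Ebf1 and Clint1 held no CANNTG, and both peaks overlapped iNKT peaks with a score of 3100. Outside the bases shown, the first of them held 3 CAGGTG or CACCTG sites and the second held 0.
Ebf1-Clint1 (chr11:45048832-45048981): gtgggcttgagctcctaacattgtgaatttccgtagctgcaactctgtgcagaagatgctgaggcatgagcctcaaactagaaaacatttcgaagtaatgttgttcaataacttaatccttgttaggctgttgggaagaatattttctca
Ebf1-Clint1 (chr11:45051464-45051613): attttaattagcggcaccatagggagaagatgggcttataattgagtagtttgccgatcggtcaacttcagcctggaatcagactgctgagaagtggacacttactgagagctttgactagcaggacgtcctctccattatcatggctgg

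Far peaks were sparse for the space they lay in. The rule selects 792 Mb of the 2556 Mb of sequenced bases, or 31% of the assembly. This gave 1.77 far peaks per Mb, against 9.14 DP peaks per Mb in the rest, a ratio of 5.16. These densities count all sequenced bases, also those where reads could not be placed uniquely. Densities over uniquely mappable bases were not computed. Of the other DP peaks, 8274 were in a gene body, 5457 were outside genes within 100 kb of a TSS, and 2397 were within 1 kb of a TSS. The density went on falling with distance. It was 3.58 ± 0.122 peaks per Mb (Poisson SE of the count) at 100 to 200 kb, 1.53 ± 0.0697 at 200 to 500 kb and 0.266 ± 0.0335 beyond 500 kb, where 63 peaks lay. The median distance to the nearest TSS was 174 kb. Of the far peaks, 31 were within 10 kb of the edge of a gene body, since the distance is to the start site and a long gene can end close to a peak.

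**Figure D1:**
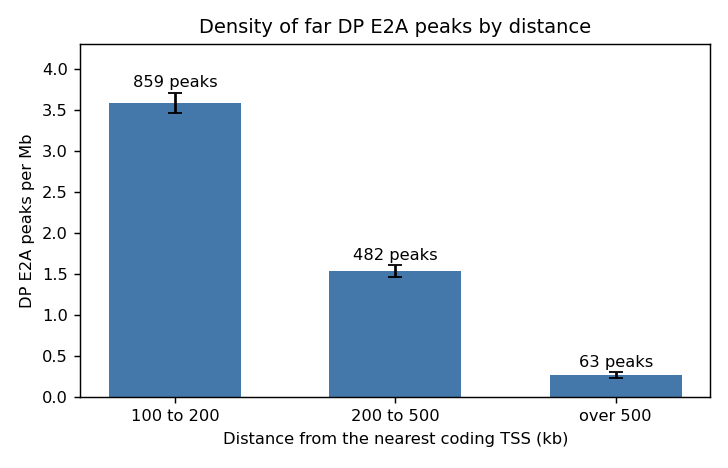
Density of far DP E2A peaks (peaks per Mb of the space at that distance, vertical axis) by the distance from the nearest protein-coding TSS in kb (horizontal axis), with the Poisson SE of the count as error bars and the number of peaks above each bar. The density falls from 3.58 peaks per Mb at 100 to 200 kb to 0.266 beyond 500 kb. The space counts all sequenced bases, whether or not reads could be placed there uniquely.

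Chromosomes differed in this density. It was highest on chromosome 13 with 3.59 far peaks per Mb of such space, followed by chromosome 9 with 3.19 and chromosome 12 with 3.03. It was lowest on chromosome 4 with 0.484 and on the X chromosome with 0.503. The X chromosome was also low elsewhere, at 1.98 other DP peaks per Mb, whereas chromosome 4 had 8.99 of these.

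Scores of far peaks were similar to those of peaks in and near genes. The median was 152 (95% binomial interval of the median, 140 to 164) with quartiles of 81.1 and 441. All other DP peaks had a median of 140, peaks in gene bodies 152, peaks outside genes within 100 kb of a TSS 148, and peaks at a TSS 105. Of the far peaks 12.3% were among the highest 10% of the DP list, against 9.80% of the other DP peaks. The median stayed close over distance, at 155 for 100 to 200 kb, 148 for 200 to 500 kb and 148 beyond 500 kb. Just inside the limit, 123 peaks at 100 to 110 kb had a median of 143, and just outside it, 165 peaks at 90 to 100 kb had 138. The nearest peak inside, between Max and Fut8, scored 85.2 at 100.045 kb, and the nearest outside, between Zfp217 and Bcas1, scored 70.1 at 99.909 kb.

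Far peaks were unevenly spread over the deserts. Of 2091 intervals between coding genes that hold such space, 394 held at least 1 far peak, and 175 of these held a single peak. At the other end, 35 intervals with 10 or more far peaks held 544 peaks, or 38.7% of them all. The 20 intervals with the most peaks held 381 peaks, or 27.1%, in 1.51% of the space.

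The interval with the most far peaks ran from Id2 to Rnf144a on chromosome 12 and held 35. Id2 encodes one of the inhibitors of E2A that the L-DKO mice lack, so these peaks flank a gene that Cre was meant to delete in the same cells. Scores ranged from 50.7 to 3100 with a median of 174. The highest, at chr12:25951179-25953399, lay 171 kb upstream of the Id2 start, scored 3100 in DP cells and overlapped an iNKT peak of score 265. Its CAGGTG site is the first sequence printed above. In all, 6 of the 35 overlapped an iNKT peak, beside 5.99% of all DP peaks. At that share, intervals of this size hold few overlaps, and a count of 0 in any of those that follow is near the background. The DP scores of the other 5 were 174, 1301, 326, 600 and 148, and their iNKT scores in the same order were 257, 155, 101, 77.4 and 61.4. The peaks were not all close to Id2, since they reached 1210 kb from its start, next to Rnf144a.

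Between Satb1 and Kcnh8, 25 far peaks had a median score of 583, the highest of the 10 intervals with most peaks. Satb1 encodes a chromatin organiser that is abundant in DP cells. With the 4 peaks on the other side of the gene, Satb1 had 29 far peaks. The highest-scoring far peak of all, chr17:52739990-52742059 with a DP score of 3219 and rank 3 in the DP list, was in this interval, 768 kb upstream of Satb1 and 124 kb from Kcnh8. It overlapped an iNKT peak of score 108. Peaks with a score of 3100 lay 425 kb downstream of the Satb1 start and 449 and 484 kb upstream, and of these the first 2 overlapped iNKT peaks, with scores of 150.5 and 62.8.

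Downstream of Myc, a driver of cell growth whose desert is known to hold enhancers used in blood cells, 22 far peaks were spread between 107 and 1632 kb from its start. Those over a score of 1000 were at 227 kb, where the DP score was 2754 and the iNKT score 338, and at 1482 kb, where the DP score was 2249 and no iNKT peak overlapped.

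On chromosome 12, the interval from Vrk1 to 3110018I06Rik held 27 far peaks, of which 11 formed a chain over 53.4 kb. The chain lay 832 to 886 kb from the start of Bcl11b, a factor needed for T lineage commitment, on the far side of 3110018I06Rik. A distal enhancer of Bcl11b is known in this desert. Along the chain the DP scores were 1013, 1426, 109, 116, 2947, 759, 225, 434, 371, 2592 and 50.1. A single peak of the chain, that of score 2947, overlapped an iNKT peak, which scored 51.5. On its near side Bcl11b had 12 more far peaks, with scores from 71.4 to 648, none of which overlapped an iNKT peak.

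In the interval from Uaca to Gm10655 on chromosome 9, 31 far peaks lay within 334 kb of such space and 5 scored over 1000. None of the 31 overlapped an iNKT peak. From Gadd45g to Diras2 on chromosome 13, 27 far peaks had a highest score of 1184, and 2 overlapped an iNKT peak. Between Bcl6, which encodes a repressor known from follicular helper T cells, and Lpp, 19 far peaks lay in 204 kb with a highest score of 2634 and no iNKT overlap. The interval from Ets2 to Psmg1 held 11 far peaks at 12.4 per 100 kb. A pair of peaks with a score of 3100 stood 165 and 168 kb from the start of Ets2, which encodes an ETS family factor, and none of the 11 overlapped an iNKT peak.

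**Figure D2:**
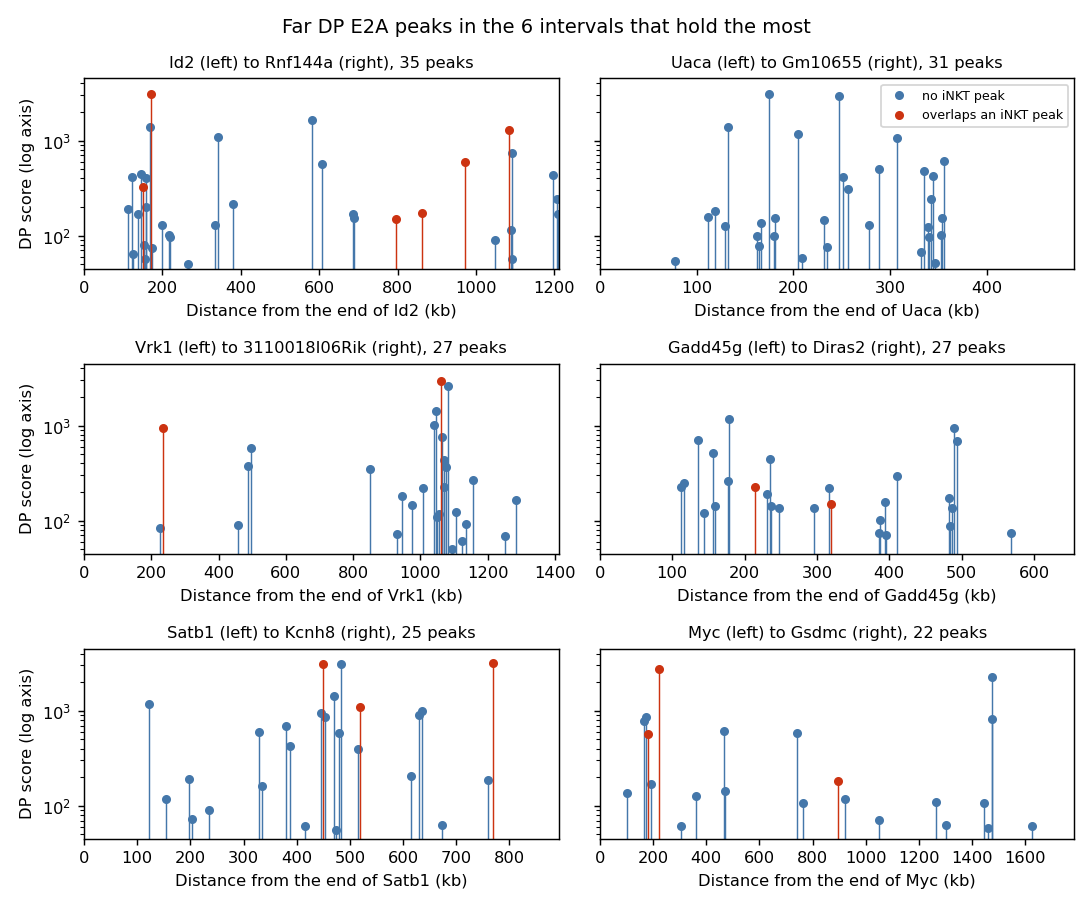
Far DP E2A peaks in the 6 intervals between coding genes that hold the most, each peak drawn at its distance in kb from the end of the gene to its left (horizontal axis) with its DP score on a log axis (vertical axis). Red peaks overlap an iNKT peak: 6 of 35 beside Id2 and none of 31 beside Uaca, where 6.91% of all far peaks and 5.99% of all DP peaks did.

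Of a list of 57 genes of T lineage transcription factors, 28 were next to space of this kind, and 17 of the 28 flanked at least 1 far peak. Among the 3415 protein-coding genes next to such space, 21.6% did. The list was drawn up with results of these data known, so its count is a description and no evidence about such genes as a class, and its genes had more of the space, with a median of 327 kb against 195 kb. No far peak flanked Mycn, Erg, Tcf4, Id4, Egr2, Nr4a2, Nr4a3, Hes1, Bach2, Foxp1 and Eomes. Of 3 cytokine and chemokine receptor or signalling genes next to such space, Cxcr4 had 6 far peaks and Sh2d1a had 1, while S1pr1 had none. Of the survival and cell cycle genes, all 3 next to such space had some, namely Bcl2l11, which encodes the death factor Bim, with 10, Bcl2 with 2 and Cdk6 with 1. A single gene of the recombination and antigen receptor list, Themis, was next to such space, and it had none. The list does not hold the antigen receptor segments, which the annotation does not type as protein-coding, and 22 far peaks lay in the intervals of the T cell receptor alpha locus, from Gm10905 to B230359F08Rik and on to Dad1.

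Individual genes differed in how their far peaks were arranged. Lef1, a partner of Tcf7 in early T cells, had 12 within 129.541 to 222.407 kb upstream of its start. Of these, 3 had high scores, namely 2792 at 164 kb, 2143 at 174 kb and 2221 at 205 kb, and the first overlapped an iNKT peak of score 144. Gata3, which is needed for T and CD4 lineage fate, had 11. A single peak at 295 kb stood out with a DP score of 1968, and it overlapped no iNKT peak. The next highest scored 429 but lay 2620 kb from Gata3, towards Celf2. The only iNKT overlap beside Gata3 was at a weak DP peak of score 67.3, with an iNKT score of 67.1.

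Runx1, which acts with its cofactor throughout T cell development, had 11 far peaks upstream. The DP scores of 2020 at 327 kb, 2151 at 365 kb and 825 at 483 kb went with iNKT scores of 143, 65.3 and 85.9, and no other far peak beside Runx1 overlapped an iNKT peak. Ets1 had 8, with a top score of 2874 at 293 kb downstream and an iNKT score of 282 there. Sox4, encoding an HMG box factor of early and iNKT development, had 19. Its top peak, at chr13:28603258-28605860 and 441 kb from Sox4, scored 3100 in DP and 136 in iNKT cells, and lay 370 kb from Prl5a1 on the other side. Foxo1, whose product controls survival and homing genes, had 7, with 1 of score 3100 at 129 kb downstream and no iNKT overlap. Beside Bcl2l11, peaks of score 2976 at 169 kb and 2828 at 287 kb overlapped iNKT peaks of scores 63.3 and 94.3, whereas another at 180 kb with a score of 2334 overlapped none.

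**Figure D3:**
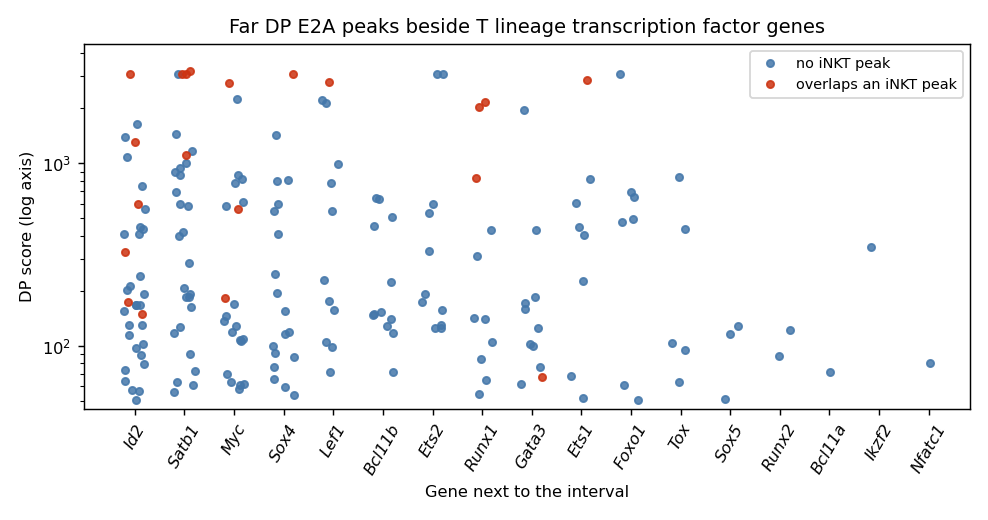
DP score on a log axis (vertical axis) of every far peak that has a T lineage transcription factor gene as a flanking gene, by gene (horizontal axis, ordered by number of far peaks). Points are single peaks, spread sideways for display, and red points overlap an iNKT peak, with 35 peaks beside Id2, 29 beside Satb1 and 1 each beside Bcl11a, Ikzf2 and Nfatc1.

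Of the far peaks, 97 (6.91%, 5.70 to 8.36) overlapped an iNKT peak by at least 1 bp, beside 5.99% of all DP peaks. With a minimum score of 100 in both lists the share was 4.45% (3.31 to 5.97), against 4.15% (3.78 to 4.56) for the other DP peaks. Without that minimum, the share among all other DP peaks was 5.92% (5.56 to 6.29) and lies inside the interval of the far peaks. The median DP score was 1165 for far peaks with an iNKT peak and 140 for those without. Within ranges of the DP score the far share lay near that of other DP peaks at 100 or more and above it at 50 to 100. At 2000 or more, 32 of 66 far peaks (48.5%, 36.8 to 60.3) overlapped, against 290 of 580 other DP peaks (interval 45.9 to 54.1). At 1000 to 2000 the shares were 19.4% and 20.7%. In the lowest range, 50 to 100, 11 of 461 far peaks (2.39%, 1.34 to 4.22) overlapped, against 1.13% of other DP peaks (0.896 to 1.43). These intervals overlap, and peaks outside genes within 100 kb of a TSS had 1.55% (1.09 to 2.19). Beyond 500 kb from a TSS 10 of 63 far peaks overlapped (15.9%, 8.86 to 26.8), against 6.64% (5.16 to 8.50) at 100 to 200 kb. The pair between Ebf1 and Clint1 is among these 10.

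**Figure D4:**
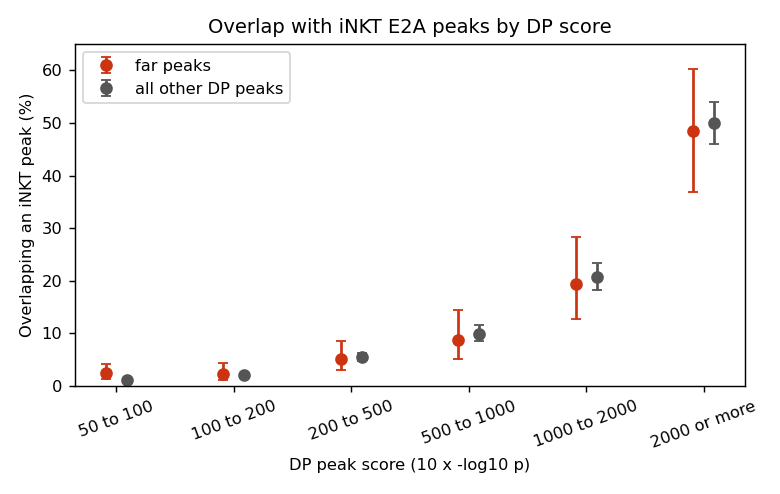
Overlap with the iNKT list as a share of the DP peaks (percent, vertical axis) by range of the DP score (horizontal axis) for far peaks (red) and all other DP peaks (grey), with 95% Wilson intervals for counting error. From 100 upwards both rise with the score, to 32 of 66 far peaks and 290 of 580 others at scores of 2000 or more.

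Seen from the iNKT list, 179 of 1516 peaks were far from genes by the same rule, or 11.8% (10.3 to 13.5), against 8.01% in DP cells. Of these, 97 overlapped a DP peak (54.2%), whereas 71.3% of the other iNKT peaks did. The remaining 82 had a median iNKT score of 58.3, close to the minimum of 50, and the 97 had 87.8. The depths of the libraries are unknown, so a missing iNKT peak does not show that E2A was absent there.

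The far peaks with the highest iNKT scores included some that also scored high in DP and some that did not. Of 23 far peaks with a DP score of 3100 or more, 13 overlapped an iNKT peak. Among those that did not was the peak between Car2 and Gm9733, which scored 3112 in DP. The overlapping ones included a peak between Rpap2 and Evi5 with an iNKT score of 238, a peak between Trib2 and Lpin1 with 206 and a peak between Eea1 and Btg1 with 131. Among the 10 highest in iNKT, the peaks between Ebf1 and Clint1 at chr11:45047765-45050049 and chr11:45050487-45052591 had iNKT scores of 3100 and DP scores of 484 and 268. Ebf1 encodes a B lineage factor. A peak between Gm7112 and Ighv1-73, with scores of 2999 in DP and 3100 in iNKT, lay in the immunoglobulin heavy chain locus, and its sequence occurs 2 times in the assembly. A peak 6009 bp wide between Gm20516 and Pgk2 scored 1017 in DP and 2245 in iNKT. Its midpoint had a GC content of 71%, against a mean of 48.6% for far peaks, and its whole width held 1 CAGGTG or CACCTG site. The start of AY036118, typed as a pseudogene, lay 2.92 kb from the midpoint. Its sequence occurs 1 time in the assembly, and whether the genome holds more copies was not tested. The peaks between Dyrk1a and Kcnj6, with scores of 3100 and 2545, and between Slc38a2 and Slc38a4, with 1779 and 1486, are the arrays printed above.

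The most distant far peak, between Kcnt2 and Cdc73, was 1464 kb from any coding TSS and scored 52.7. Of the next 4, 3 were between Csmd3 and Trps1, with scores of 86.9, 982 and 402 at 1030, 990 and 947 kb. The remaining one was between Bcl11a, which encodes a zinc finger factor, and 5730522E02Rik, with a score of 71.5 at 1022 kb. None of these 5 overlapped an iNKT peak.

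E-boxes were about as frequent at far peaks as at other DP peaks. CAGGTG or CACCTG was found in the 200 bp at the midpoint of 44.3% of far peaks (41.7 to 46.9), beside 43.9% of all DP peaks. In windows of the same size 2 kb to either side it was found in 13.2% (12 to 14.5), a fold of 3.35. Other DP peaks had 43.9% against 15.7% in their flanks, a fold of 2.79. By place the fold was 3.04 outside genes within 100 kb of a TSS, 2.81 in gene bodies and 2.17 at a TSS. Among all windows of 200 bp in the space of far peaks, 10.1% held the site. CAGCTG was found at 27.8% of far midpoints against 8.33% of flanks, a fold of 3.33, and at 29.2% of other DP midpoints. At least 1 of these cores was found at 843 far midpoints (60.04%) and at 60.8% of other DP midpoints. The core CAGATG (reverse CATCTG) had a fold of 1.63, and CATATG was less frequent at midpoints, with 3.13%, than in flanks, with 5.70%. ACCACA (reverse TGTGGT), the core bound by Runx factors, was at 26.5% of far midpoints and 15.6% of flanks, and at 23.5% and 15.9% for other DP peaks. TCAAAG (reverse CTTTGA), the core bound by Tcf7 and Lef1, was at 20.9% and 15.8% for far peaks and at 17.1% and 13.6% for other DP peaks. Far midpoints had a mean of 2.75 CpG in 200 bp, against 4.51 for all other DP peaks. Peaks at a TSS had 11.1, those in gene bodies 3.41 and those outside genes within 100 kb of a TSS 3.27.

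**Figure D5:**
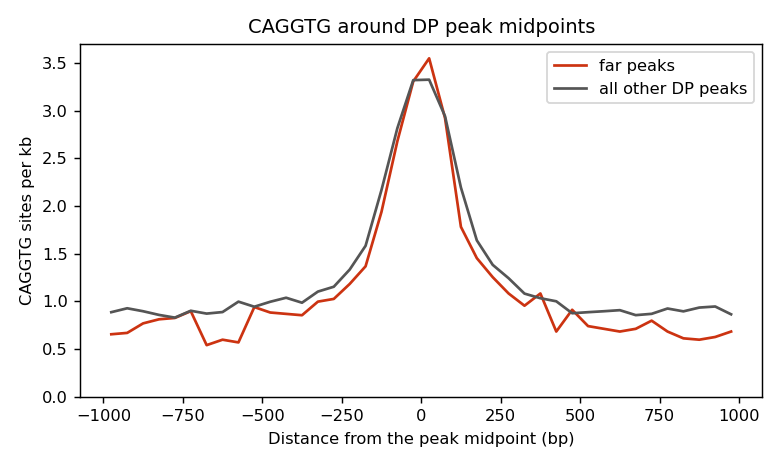
CAGGTG sites per kb, both strands (vertical axis), in bins of 50 bp by distance in bp from the peak midpoint (horizontal axis) for far peaks (red) and all other DP peaks (grey). Far peaks reach 3.55 sites per kb in the bin after the midpoint, and the other DP peaks reach 3.32.

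The bases next to CAGGTG also differed between midpoints and flanks. In windows with 1 or 2 sites, read so that the core is CAGGTG, the base before it was G at 39.5% of 683 sites at far midpoints (35.9 to 43.2) and at 22.8% of 395 sites in flanks (18.9 to 27.2). It was T at 8.20% (6.37 to 10.5) against 24.1% (20.1 to 28.5). The base after the core was A at 11.7% (9.51 to 14.3) against 30.1% (25.8 to 34.8). Other DP peaks had a G before the core at 38.4% of sites, a T before it at 9.20% and an A after it at 11.4%.

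Far peaks with many E-boxes had a larger share of overlap with iNKT peaks. Counting CAGGTG on either strand together with the palindrome CAGCTG over the whole peak, 23 far peaks held 10 or more. Of these, 8 overlapped an iNKT peak (34.8%, 18.8 to 55.1), against 43 of 918 with 1 to 3 sites (4.68%, 3.50 to 6.25). The other DP peaks gave 29.3% (25.2 to 33.7) of 437 and 3.55% of 9847. Width and score differed between these groups as well, and their part in the overlap was not tested beyond ranges of the score. The median width was 1378 bp with 10 or more sites, 1351 bp with 4 to 9 and 914.5 bp with 1 to 3, and the median score was 454, 504 and 136. The 319 far peaks with 4 to 9 sites had an overlap of 12.9% (9.62 to 17.0). At DP scores under 500, 3 of 12 far peaks with 10 or more sites overlapped (25%, 8.89 to 53.2), against 26 of 941 with 1 to 9 (2.76%, 1.89 to 4.02). At scores of 500 or more the intervals overlapped, with 5 of 11 (45.5%, 21.3 to 72.0) against 58 of 296 (19.6%, 15.5 to 24.5). Of the other DP peaks in that range, 93 of 265 with 10 or more sites (35.1%, 29.6 to 41.0) and 531 of 2746 with 1 to 9 (19.3%, 17.9 to 20.9) overlapped. The most sites were 45 between Slc38a2 and Slc38a4, 42 between Dyrk1a and Kcnj6 and 35 in a peak between Runx1 and Setd4 that scored 825 in DP and 85.9 in iNKT. The Uaca interval held 2 of the 23, with DP scores of 3100 and 2911 and no iNKT overlap. Whether the mouse genome holds more copies of such repeats than the assembly was not tested.

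Chains of neighbouring peaks were about as frequent among far peaks as among all DP peaks, but places differed. A chain was 3 or more DP peaks with gaps of at most 10 kb, and 454 far peaks were in one (32.3%, 29.9 to 34.8), beside 34.5% of all DP peaks. The share was 37.7% (36.6 to 38.7) in gene bodies, 35.3% outside genes within 100 kb of a TSS and 22.7% (21.1 to 24.5) at a TSS. Beyond 500 kb from a TSS, 0 of 63 far peaks were in a chain (0 to 5.75). No other DP peak lay within 100 kb of 158 far peaks (11.3%), against 6.92% of the other DP peaks. By place that share was 12.1% at a TSS, 6.25% in gene bodies and 5.66% outside genes within 100 kb of a TSS. Far peaks in chains had a median score of 187, those in pairs 179 and single ones 126, and their iNKT overlap was 6.61%, 7.42% and 6.88%. In all 118 chains had a far peak, 103 of them were made of far peaks alone and 21 held 5 or more. After the chain of 11 between Vrk1 and 3110018I06Rik, those with most far peaks held 10 each, beside Id2, between Bcl6 and Lpp and between Uaca and Gm10655. The next held 9 each, between Rpap2 and Evi5 and between Sulf2 and Prex1.

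The chain between Rpap2 and Evi5 showed a limit of the gene list. Gfi1, which encodes a repressor of T cell and blood development, lies there at chr5:108145674-108155056 but is typed as a processed transcript and not as protein-coding, so 3 of the 9 peaks were in its body. Among them was a peak of score 3100 at chr5:108145881-108149646 with an iNKT score of 238. Genes of this kind took in 23 far peaks and antigen receptor gene segments 33, and without these 56 (3.99%) there were 1348 far peaks. The flanking genes named here depend on the annotation as well. By the gene order of RefSeq, 44 of the 365 intervals that could be placed, with 146 of 1271 far peaks, had another coding gene between the flanking ones. A further limit is that 105 far peaks (7.48%) were inside a gene of another type, of which 61 were in a long intergenic non-coding RNA.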

How the data were processed

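E2A ChIP-Seq was done on DP and iNKT cells sorted from L-DKO thymus, with 1 E2A and 1 input library per cell type, and the inputs were not analysed here as files of their own. The authors used Bowtie 1.1.2 for alignment to mm9, retaining only uniquely placed reads, and MACS 1.4.2 with its defaults for peak calling. The deposited files hold, per library and not pooled over cell types, each peak's position and a score, 10 times the −log10 of its p-value, with no read counts. Repeats that occur several times in the assembly are thus under-represented.

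Genes were taken from GENCODE M1 on NCBIM37, the assembly of mm9. For each peak the flanking coding genes, chains, iNKT overlap of at least 1 bp, 6-base cores in 200 bp at the midpoint and in flanks 2 kb away, and the copy number in the assembly (the median occurrence of the 31-base words of the peak) were computed. Sequence was read from the same assembly. Intervals are 95% Wilson intervals and cover counting error only, and no test was run, since peaks of 1 library are not replicates. The functions passed 6 of 6 checks on made-up sequences and positions with known answers.

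The members, gene lists and rules were chosen with earlier results of these data known. Peaks named are the 10 highest by DP score (ties ordered by iNKT score), the 10 with the highest overlapping iNKT score, the 5 most distant, the 5 chains with most far peaks and those beside genes of 4 lists (T lineage transcription factors, recombination and antigen receptor genes, cytokine and chemokine receptors and signalling, survival and cell cycle). The intervals with most peaks, the peaks with most E-box copies and the count of sites per whole peak were chosen after their values were seen. Alternatives were the distance limit, the gene types, a minimum score of 100 in both lists, sequence of copy number 1, the overlap, the motif window and the gap of chains. Adding coding genes of RefSeq and receptor segments was chosen after seeing the data. Computations used pandas 2.3.3, numpy 2.4.6, scipy 1.17.1 and numba 0.67.0 under Python 3.11.15, with matplotlib 3.10.9 for plots.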

Additional observations from a re-analysis of the deposited data

How the results depend on the processing

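Of 55 alternative values of 8 results, 32 stayed within the 95% interval of the reported value (for the number of peaks, within 1.5 times it), 23 moved outside it and 0 changed direction. Only the fold of CAGGTG over flanks could have changed direction, since counts, shares and medians have none. Distance limits of 50 and 200 kb gave 2591 and 545 far peaks (14.8% and 3.11% of DP peaks) at median distances of 109 and 291 kb, and with 200 kb 29.2% were in chains. Counting genes of every type left 730 far peaks (4.16%), at a median of 156 kb, with a CAGGTG fold of 3.72. With scores of 100 or more in both lists, 8.59% of DP peaks were far, their median score was 301, 24.1% were in chains, 4.45% overlapped an iNKT peak and 47.3% had CAGGTG at the midpoint. An overlap of 50% of each peak gave 5.56%. CAGGTG was in 75.6% of whole peaks, a fold of 1.47, and in 26.6% of windows of 100 bp, a fold of 3.83. Gaps of 5 and 50 kb put 18.3% and 68.1% in chains. Restriction to sequence of copy number 1 moved none of the 8 results, and the addition of RefSeq coding genes and receptor segments, chosen after seeing the data, moved none either.

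No paired analysis was possible because each cell type had 1 E2A library. The shares, densities and scores therefore carry no error between libraries. Scores rise with depth, which is unknown, and are comparable within a list only. A flanking gene is a position, and which gene a far peak acts on was not measured.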
